A study of Homo sapiens with 24 samples.

Results

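The amino acid transporter families SLC1, SLC3, SLC6, SLC7, SLC36, SLC38 and SLC43 were examined by gene symbol, taking every gene whose annotated symbol begins with one of these family names and leaving out pseudogenes. Among the 14884 genes named by the annotation used here, which leaves many array rows unnamed, 2 met this rule, SLC38A12 and SLC7A11-AS1. The classical carriers of these families were not analysed here, so the label of a transporter group covers little of what follows. SLC38A12, on chromosome 17 and known earlier as TMEM104, encodes a membrane protein and is the 1 protein-coding gene of the set. SLC7A11-AS1 is an antisense RNA that encodes no transporter and takes its name from the cystine and glutamate exchanger gene on the opposite strand.

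Messenger RNA was measured on 24 Affymetrix arrays in HL60, KG1a, MOLM14 and U937, established human acute myeloid leukaemia lines that were kept in exponential growth. Each line was untreated (control) or had received 10 mM metformin, a biguanide that the study used to inhibit complex I of the respiratory chain, for 24 h. The 8 groups hold 3 arrays each, with the letters A, B and C. Oxidative phosphorylation (OXPHOS) is labelled as high in KG1a and MOLM14 and as low in HL60 and U937, and treated KG1a and MOLM14 arrays carry the label low. No genetic change was made in any group, each class holds only 2 lines, and no label says whether replicate arrays are of separate cultures. The p-values therefore measure the spread between these arrays, and their number limits the precision.

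Amino acid carriers of the SLC families move amino acids across the plasma membrane and across the membranes of organelles such as the lysosome. Cells read their amino acid supply in part through mTORC1, a growth kinase complex at the lysosome, and in part through the kinase GCN2 (EIF2AK4) and the transcription factor ATF4, which raises many genes of amino acid uptake and synthesis. The SLC38 family is best known for carriers that couple neutral amino acids to sodium. SLC38A12 was placed there by nomenclature, and no transport activity is assumed here. Cystine taken up by the exchanger of the SLC7 family feeds the synthesis of glutathione, the main small antioxidant of the cell.

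The promoter of SLC38A12 is shown because it is the 1 promoter of the 2 genes that the RefSeq table of GRCh38.p14 holds. It is printed from 250 bases before the start of the gene to the base before it, chr17:74776249-74776498 on the plus strand, 5′ to 3′. Capitals mark matches to GCATGCGC on either strand, the core of the sites bound by NRF1, a transcription factor known for genes of respiration.
SLC38A12: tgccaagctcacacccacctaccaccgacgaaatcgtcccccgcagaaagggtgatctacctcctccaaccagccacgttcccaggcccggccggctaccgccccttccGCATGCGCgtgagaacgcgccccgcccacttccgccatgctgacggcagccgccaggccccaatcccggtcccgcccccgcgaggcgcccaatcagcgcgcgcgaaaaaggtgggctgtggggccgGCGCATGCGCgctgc
The core occurs in 2 separate runs, of which the run nearer to the gene ends 5 bases before the start and reads the same on both strands, so that its matches overlap. Of 35116 promoter entries in the table, 2.63% hold this core in the same 250 bases. The CCAAT box, searched as CCAAT on both strands, occurs 2 times in SLC38A12 and at least once in 32.0% of entries. Neither the composite element of ATF4 and C/EBP (TGATGNAA, in 3.14% of entries), nor the antioxidant response element (TGACNNNGC, in 10.9%), nor the E-box CACGTG (in 6.34%) has its letters in this window on either strand. These matches describe letters only, and the motifs were chosen after the data had been seen.

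All values are log2 normalized signals, so a difference of 1 is a doubling, and array medians lay between 3.99 and 4.08. Marker genes differed between the lines. CD34, the progenitor antigen, had group means of 11.2 and 11.3 in KG1a and at most 3.61 elsewhere, the granule enzyme gene MPO was highest in HL60 at 12.5, and the receptor gene FLT3 reached at least 10.4 in MOLM14 and at most 3.68 elsewhere. The other granule genes did not follow MPO: AZU1 had a control mean of 6.97 in HL60, 10.1 in MOLM14 and 8.70 in U937, and PRTN3 of 11.4, 12.3 and 11.8. The lysozyme gene LYZ was at least 9.40 in MOLM14 and U937 and 7.26 in HL60 controls, whereas the monocyte antigen gene CD14 stayed at or under 3.72 in every group. CSF1R, another monocytic marker, was at 5.99 in MOLM14 controls but at 4.37 in U937 controls, near the 4.28 of KG1a. MEIS1 was at 6.80 and 6.53 in MOLM14 and U937 controls and at most 3.56 in HL60 and KG1a. SPI1, chosen as a marker of blood cells, had control means of 4.65 in KG1a, 7.52 in HL60, 7.94 in MOLM14 and 7.58 in U937. The epithelial gene EPCAM lay between 3.87 and 4.04. KRT8, another epithelial gene, had group means from 4.16 to 4.82, above the median of all array rows in all 8 groups. By the median absolute difference from the mean of the other arrays of its group, U937 metformin A and the C controls of HL60 and U937 stood farthest apart, and results without these 3 are given below.

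Among untreated lines, SLC38A12 split along the OXPHOS classes, with higher levels in HL60 and U937, the low lines. Its log2 level on the 3 control arrays was 8.66, 8.71 and 8.74 in HL60. In U937 it was 8.55, 8.60 and 8.60. MOLM14 controls read 7.79, 7.89 and 7.90. KG1a controls read 7.46, 7.57 and 7.43. The 6 control arrays of the low lines therefore all lay above the 6 of the high lines, an order in this direction that was seen in 6.98% of the 10641 genes tested. The mean of KG1a and MOLM14 was 7.67 and that of HL60 and U937 8.64, a difference of -0.97 ± 0.05 (log2, SE, n = 3 arrays for each of 4 lines), or 1.96-fold higher in the low lines. It passed limma's test with Benjamini-Hochberg adjustment over all genes (adjusted p = 6.80e-14), as did 33.5% of genes in this direction. Differences among the 4 untreated lines, with a range of 1.22, also passed (F test, adjusted p = 2.35e-13), which 83.2% of genes did. Leaving out the 3 arrays that stood apart gave a class difference of -0.96. Each class is 2 lines, so the class and the identity of its lines cannot be told apart.

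**Figure D1:**
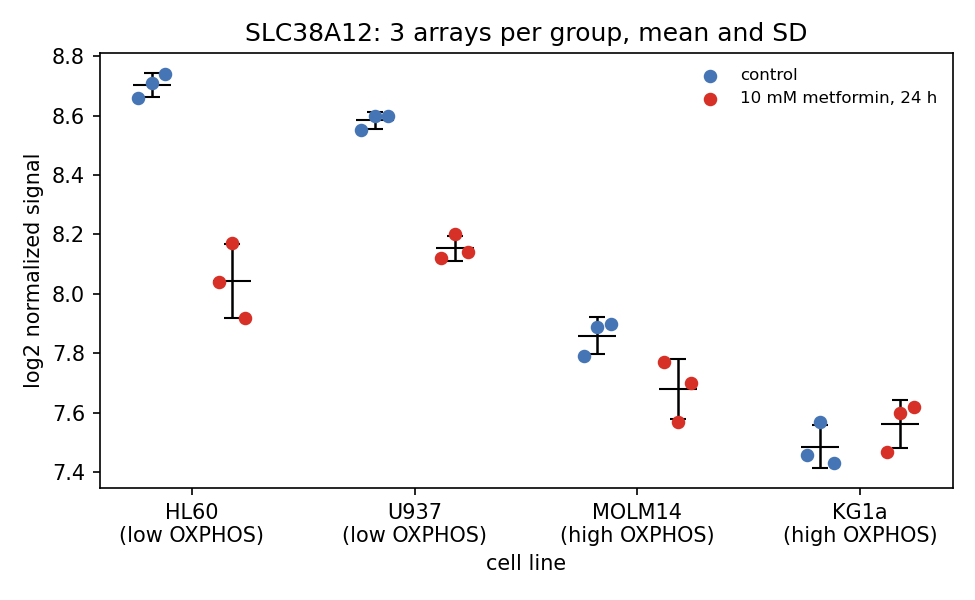
SLC38A12 on each of 24 arrays, as log2 normalized signal (vertical axis) by cell line (horizontal axis), with control arrays in blue and metformin arrays in red. Black bars are the mean and SD of 3 arrays. Controls of HL60 and U937 lie between 8.55 and 8.74 and their metformin arrays between 7.92 and 8.20, whereas the arrays of KG1a overlap.

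Metformin lowered SLC38A12 in both low OXPHOS lines. In HL60 the metformin arrays read 8.04, 8.17 and 7.92, all below the controls, an order found in 16% of genes in this direction. The mean fell from 8.70 ± 0.04 to 8.04 ± 0.12 (SD, n = 3), a change of -0.66 ± 0.08 (log2, SE) with a 95% interval from -0.82 to -0.50 (limma, adjusted p = 7.73e-07), which leaves 0.632 of the control level. In U937 the metformin arrays read 8.12, 8.20 and 8.14, again all below the controls, as in 16.3% of genes. There the mean fell from 8.59 ± 0.03 to 8.16 ± 0.04 (SD, n = 3), a change of -0.43 ± 0.08 (log2, SE, interval -0.59 to -0.27, limma adjusted p = 0.000445), leaving 0.742 of the control level. Genes called lower made up 9.56% of those tested in HL60 and 9.74% in U937. The HL60 share moved with scaling, to 14.5% after quantile normalization and 6.47% with arrays centred on their medians. In RNA of whole cultures, a lower level in every cell and fewer cells with the RNA cannot be told apart.

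In the high OXPHOS lines no change of SLC38A12 passed the test. MOLM14 metformin arrays read 7.77, 7.57 and 7.70. The highest of them lies just under the lowest control, 7.79, so the groups do not overlap, which held in this direction for 13.0% of genes. The difference of -0.18 ± 0.08 (log2, SE, interval -0.34 to -0.02) had a limma adjusted p of 0.206, where 5.06% of genes passed in MOLM14. KG1a metformin arrays read 7.47, 7.60 and 7.62 and overlapped with the controls. Their difference was 0.08 ± 0.08 (log2, SE, interval -0.08 to 0.24, limma adjusted p = 0.717), in a line where 2.49% of genes passed.

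The response of SLC38A12 differed between the classes by its own test. The change in KG1a and MOLM14 minus that in HL60 and U937 was 0.49 ± 0.08 (log2, SE, interval 0.34 to 0.65), with a limma adjusted p of 0.000239. Genes called in this direction made up 2.05% of those tested, 218 in number. Under quantile normalization there were 350 such genes, and 138 with arrays centred on their medians. The F test of any difference among the changes of the 4 lines passed too (adjusted p = 0.000337), with a range of 0.74 between HL60 and KG1a, where 10.0% of genes passed. The gap between the class means, 1.96-fold in controls, was 1.39-fold in metformin arrays, where the low lines averaged 8.10 and the high lines 7.62. The untreated difference and the difference in response share the control arrays, so they are not independent of each other. Without KG1a, which leaves MOLM14 as the high line, the difference in response was 0.37 and did not pass (adjusted p = 0.0510). Without HL60 it was 0.38 and passed (adjusted p = 0.0363). Without the 3 arrays that stood apart it was 0.47 (adjusted p = 0.00167).

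Ordered by group mean, SLC38A12 ran from HL60 control (8.70) through U937 control (8.59), U937 metformin (8.16), HL60 metformin (8.04), MOLM14 control (7.86), MOLM14 metformin (7.68) and KG1a metformin (7.57) to KG1a control (7.49). The arrays of U937 metformin and HL60 metformin overlap, as do those of MOLM14 metformin and KG1a metformin and those of the KG1a groups. The other neighbours in this order do not overlap. Over the 4 lines the mean change was -0.30 ± 0.04 (log2, SE, limma adjusted p = 2.35e-06), and 16.1% of genes were called lower on this mean. It averages unlike lines: with each line taken as 1 value the adjusted p was 0.139, and without HL60 the mean change was -0.18 (adjusted p = 0.00718).

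SLC7A11-AS1 was measured near the lower end of the arrays. The filter for testing asked for 1 or more group means at or above 4.02, which is the median over all array rows, and SLC7A11-AS1 passed that filter only through the metformin groups of HL60 and KG1a. A member that enters in this way had to be higher in those groups. Its changes there, and its mean change over the lines, which includes them, are given as description and support nothing. The same holds for comparisons of its change between lines or classes, which use those groups. All 12 control arrays read between 3.50 and 3.93. At such levels differences are compressed, and the strand read by the array row is not given in the sources used here, so signal from the overlapping exchanger gene cannot be told apart from that of the antisense RNA.

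In HL60, SLC7A11-AS1 controls read 3.86, 3.87 and 3.80 and metformin arrays 4.45, 4.22 and 4.53, with no overlap, as for 21.2% of genes in this direction. The change of 0.55 ± 0.10 (log2, SE, n = 3 per group, limma adjusted p = 0.000256) is 1.47-fold, and 15.5% of genes were called higher in HL60. In KG1a, controls read 3.93, 3.81 and 3.75 and metformin arrays 4.29, 4.15 and 4.33, again without overlap (7.31% of genes). The change of 0.43 ± 0.10 (log2, SE, limma adjusted p = 0.0235) is 1.34-fold, in a line where 0.818% of genes were called higher. That call lay near the threshold and was lost when any 1 of 4 arrays was left out. The adjusted p was 0.0757 without control B, 0.110 without control C, 0.0920 without metformin A and 0.0899 without metformin C, with changes of 0.39 to 0.42. With control and metformin arrays of a letter paired within the line it was 0.0533.

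**Figure D2:**
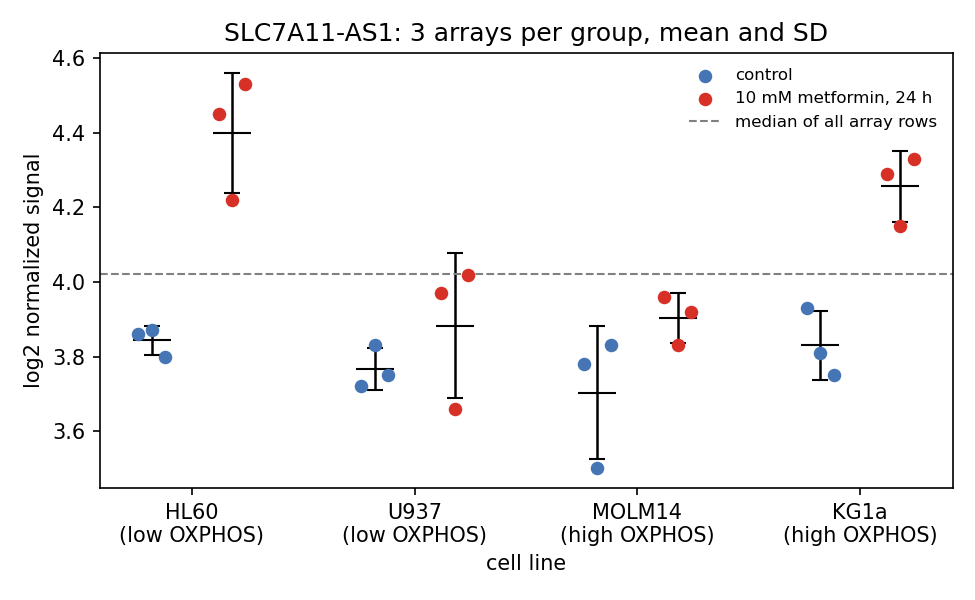
SLC7A11-AS1 on each of 24 arrays, as log2 normalized signal (vertical axis) by cell line (horizontal axis), controls in blue and metformin arrays in red, with the mean and SD of 3 arrays in black. The dashed line is the median of all array rows, 4.02. All metformin arrays of HL60 and KG1a lie above it, and the controls of every line lie under it.

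In the other lines SLC7A11-AS1 stayed under the median of all rows on every array. MOLM14 controls read 3.78, 3.50 and 3.83 and metformin arrays 3.96, 3.83 and 3.92. The groups touch at 3.83 without overlapping (13.3% of genes), and the difference of 0.20 ± 0.10 (log2, SE, interval -0.01 to 0.41) did not pass (limma adjusted p = 0.305). Without control B it was 0.10. U937 controls read 3.72, 3.83 and 3.75 and metformin arrays 3.97, 3.66 and 4.02, which overlap. The difference there was 0.12 ± 0.10 (log2, SE, interval -0.09 to 0.32, limma adjusted p = 0.493), where 17.2% of genes passed. It was 0.047 without metformin C, 0.070 without metformin A and 0.23 without metformin B, and passed in none of these. Over the 4 lines the mean change was 0.32 ± 0.05 (log2, SE, limma adjusted p = 2.66e-05), and with each line taken as 1 value the adjusted p was 0.0587. This mean holds the HL60 and KG1a groups that let the gene through the filter, so nothing is read from its call.

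No comparison of SLC7A11-AS1 between lines or classes passed the test. Untreated lines had a range of 0.14 between their means (F test, adjusted p = 0.530), and the untreated class difference was -0.04 ± 0.07 (log2, SE, interval -0.19 to 0.11, limma adjusted p = 0.661). The difference of the metformin change between the classes was -0.02 ± 0.10 (log2, SE, interval -0.23 to 0.19, limma adjusted p = 0.938). The F test among the 4 changes did not pass (adjusted p = 0.120). Both hold the HL60 and KG1a metformin groups that let the gene through the filter, so nothing is read from them. By group mean the order ran from HL60 metformin (4.40) and KG1a metformin (4.26) through MOLM14 metformin (3.90) and U937 metformin (3.88) to the controls of HL60 (3.84), KG1a (3.83), U937 (3.77) and MOLM14 (3.70). The arrays of KG1a metformin and MOLM14 metformin do not overlap, and those of every other pair of neighbours do.

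**Figure D3:**
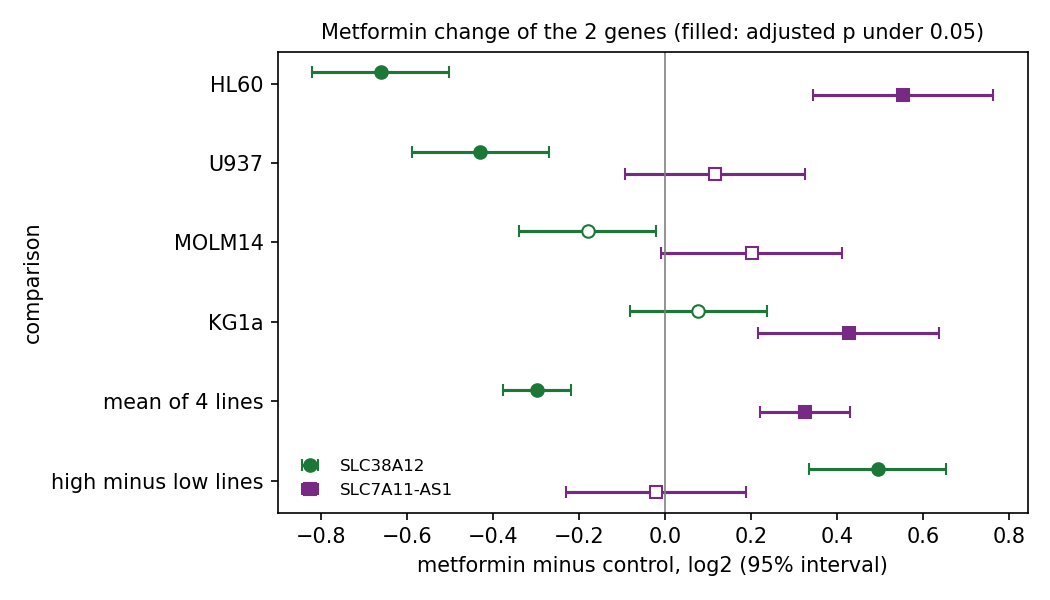
Change with metformin (horizontal axis, log2, metformin minus control) of SLC38A12 (circles) and SLC7A11-AS1 (squares) in each line, averaged over 4 lines, and as the high OXPHOS lines minus the low (vertical axis). Bars are 95% intervals of the limma fit and filled symbols passed an adjusted p of 0.05. SLC38A12 is at -0.66 in HL60 and 0.08 in KG1a, and SLC7A11-AS1 is at 0.55 in HL60 and 0.12 in U937.

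Transporters of amino acids outside these families were represented by 2 tested genes. SLC66A1, which exports cationic amino acids from the lysosome, changed by -0.11 ± 0.06 on the mean of 4 lines (log2, SE, limma adjusted p = 0.176). SLC25A15, the ornithine carrier of mitochondria, changed by 0.04 ± 0.04 (adjusted p = 0.559). On the class means of untreated lines both were higher in the high OXPHOS class, SLC66A1 by 0.95 ± 0.08 and SLC25A15 by 0.86 ± 0.06 (log2, SE, limma adjusted p = 3.87e-10 and 3.14e-12), where 28.4% of all genes were called higher. SLC38A12 was lower in that class. Across the 4 untreated lines SLC66A1 had a range of 2.74 and SLC25A15 of 1.53. With such a range SLC66A1 cannot have had both high lines above both low lines, so it did not split by class as SLC38A12 did. Metformin changed SLC25A15 unequally between lines (F test, adjusted p = 0.0151), with a rise of 0.29 ± 0.08 in HL60 (limma adjusted p = 0.0130) and no other change past the threshold.

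Genes that sense or answer amino acid supply were read from the same fit. Of 12 tested genes of the integrated stress response, 10 rose and 0 fell on the mean of 4 lines, with a median change of 0.41 (log2) against -0.01 over all genes. Of all genes, 16.3% were called higher and 16.1% lower on this mean. With each line taken as 1 value, 4 of the 12 were higher. By line, 8 of the 12 rose in HL60, 8 in U937, 5 in MOLM14 and 3 in KG1a. Of all genes, 15.5%, 7.46%, 2.48% and 0.818% were called higher in these lines. The 4 genes of the list with the smallest adjusted p on the mean were PSAT1, ASNS, DDIT3 and TRIB3. DDIT3 and TRIB3 did not pass in KG1a, with changes of 0.03 and 0.13. On the mean of 4 lines GCN2 (EIF2AK4), the sensor of uncharged tRNA, rose by 0.24 ± 0.05 and ATF4 itself by 0.17 ± 0.05 (log2, SE, limma adjusted p = 0.000335 and 0.00992), both named for their role after their values had been seen. By line, EIF2AK4 passed only in HL60 and U937, at 0.31 and 0.37, and ATF4 only in U937, at 0.40. In KG1a EIF2AK4 changed by 0.02 and ATF4 by 0.05. For 5 of the 12 tested stress response genes the metformin change was lower in the high OXPHOS lines than in the low lines, and for 0 it was higher. Of all genes, 4.64% were called lower in this comparison of changes.

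Of 28 tested genes of mTORC1 amino acid sensing, 8 rose and 3 fell on the mean of 4 lines, with a median change of 0.03. With each line taken as 1 value 1 rose and 0 fell, and after quantile normalization 6 fell. The 8 and 3 are 28.6% and 10.7% of the list, against 16.3% higher and 16.1% lower among all genes. After DDIT4 and SESN2, the smallest adjusted p on this mean belonged to KICS2, a subunit of the KICSTOR complex that tethers an inhibitor of mTORC1 signalling to the lysosome, which rose by 0.45 ± 0.06, and to SESN3, a sestrin, which fell by 0.39 ± 0.06 on the log2 scale (limma adjusted p = 5.02e-06 and 3.75e-05). By line, KICS2 passed only in HL60 and MOLM14, at 0.90 and 0.62. SESN3 passed only in HL60 and U937, at -0.80 and -0.45. In KG1a they changed by -0.01 and -0.14. Of the 28 genes, 7 rose and 3 fell in HL60, 4 and 3 in U937, 4 and 0 in MOLM14, and 0 and 0 in KG1a. Of all genes, 15.5%, 7.46%, 2.48% and 0.818% were called higher in these lines. The shares called lower were 9.56%, 9.74%, 2.57% and 1.67%. Of 13 tested genes of cystine and glutathione metabolism, 5 rose and 2 fell on the mean of 4 lines, with a median change of 0.00. That is 38.5% and 15.4% of the list against 16.3% and 16.1% of all genes. With each line taken as 1 value 0 rose and 0 fell. After CTH came CBS, the first enzyme of transsulfuration, at 0.33 ± 0.05, and NFE2L2, which encodes the antioxidant factor NRF2, at 0.27 ± 0.04 (log2, SE, limma adjusted p = 1.33e-05 and 1.36e-05). KEAP1, which marks NRF2 for degradation, fell by 0.27 ± 0.04 (adjusted p = 3.60e-05). Within lines, 4 of the 13 rose and 2 fell in HL60, and 2 rose and 3 fell in U937. In MOLM14 1 rose and 0 fell, and in KG1a 0 rose and 1 fell, beside the shares of all genes given above for each line. CBS and NFE2L2 therefore did not pass as higher in KG1a.

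**Figure D4:**
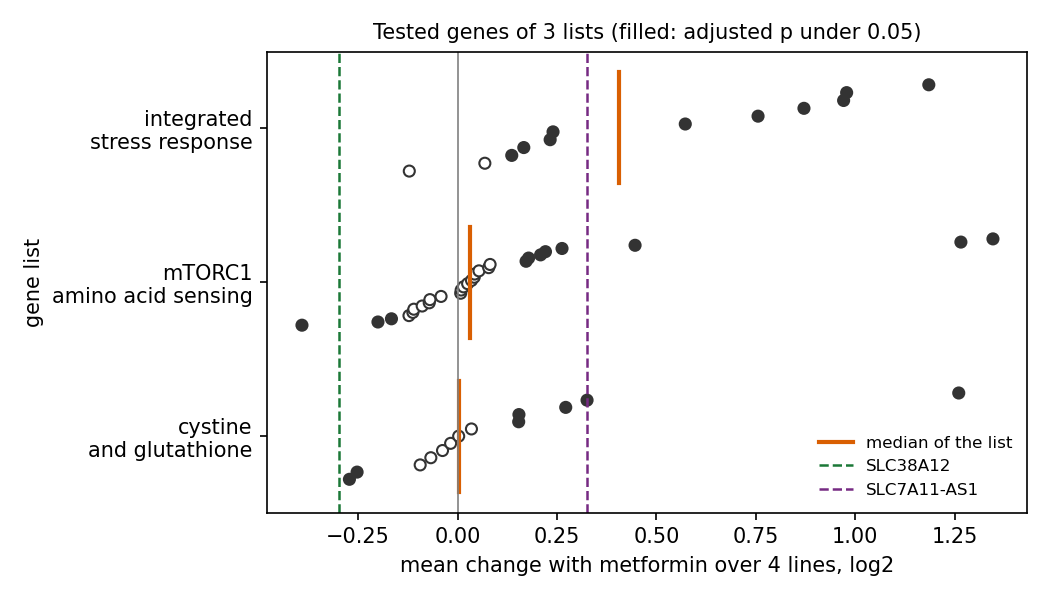
Mean change with metformin over 4 lines (horizontal axis, log2) of each tested gene of 3 lists (vertical axis), with filled points where the adjusted p was under 0.05 and the median of each list in orange. Dashed lines mark SLC38A12 at -0.30 and SLC7A11-AS1 at 0.32. The list of the integrated stress response is shifted to higher values (median 0.41) and the other lists centre near 0.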

How the data were processed

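The deposited table holds 1 value per array row for 24 arrays. The deposited values were taken as log2 normalized signals made by the authors before deposit, because they run from 1.88 to 14.2 with near-equal array medians, and the labels do not state the log base. Per the labels' protocols, 250 ng of total RNA was labelled with biotin for Affymetrix arrays. The submitters' processing notes name Partek. How background was corrected and how arrays were normalized and summarised, and the genome build, are not given in the sources used. Depth does not apply to arrays.

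Of 53617 rows, 16098 carry 1 gene symbol in the gene annotation used here, 0 carry several and 37519 are left unnamed by it. All 16098 gene identifiers matched the RefSeq table of GRCh38.p14. Where several rows name a gene, the row of highest mean over all arrays stood for it, and each of the 2 genes had 1 row. Genes with a group mean of at least 4.02 (10641) were fitted with limma 3.58.1 in R 4.3.3 as 8 group means with 16 residual degrees of freedom, with Benjamini-Hochberg adjustment over all of them at 0.05. Counts of arrays that do not overlap and all list counts come from the same 10641 genes. The calculation was tested on simulated data. A log2 change of 0.5 set in all 4 lines was recovered within a line for 74% to 83% of the changed genes. Set in HL60 and U937 alone, it was recovered for 72% by the class difference and for 51% by the F test between lines. A change of 1 was recovered for at least 98% in each of these tests. Smaller changes can therefore be missed. Figures were drawn with matplotlib 3.10.9.

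The genes, lists and tests were chosen with earlier results of these data known. Genes were named by a rule: every member, with values on each array, and from each neighbouring list at most 4 genes by smallest adjusted p. EIF2AK4 and ATF4 lie outside it and were named after their values were seen. Lists were tested in part: 28 of 36 genes of mTORC1 sensing, 12 of 19 of the integrated stress response, 13 of 18 of cystine and glutathione and 2 of 17 other transporters. Arrays of a group correlated between 0.983 and 0.993 and shared at most 5 identical values, so none was a duplicate. Same-letter control and metformin arrays of a line deviated together little (correlations from -0.062 to 0.146, 1 of 12 over 0.1). The letters were therefore not taken as pairs. In HL60 the same-letter correlations were 0.062, 0.072 and 0.146, all above those of unlike letters, which were at most 0.041. Alternatives included quantile normalization, arrays centred on their medians, no or a stricter filter, the mean over a gene's rows, moderation with a trend, replicate blocks, a threshold of 0.01, fits of 1 line, each line as 1 value, and leaving out each array or line. Leaving out 3 arrays that stand apart was added after seeing the data.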

Additional observations from a re-analysis of the deposited data

Results flagged for a closer look

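The metformin change of SLC38A12 differed between classes and between lines, each by a test of the difference itself. The change in KG1a and MOLM14 exceeded that in HL60 and U937 by 0.49 (log2, limma adjusted p = 0.000239), from -0.66 in HL60 and -0.43 in U937 to -0.18 in MOLM14 and 0.08 in KG1a. Across the 4 lines the changes spanned 0.74 (F test, adjusted p = 0.000337).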

How the results depend on the processing

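The fall of SLC38A12 in HL60 and in U937 and its untreated differences kept their direction and their call under every alternative run: between -0.72 and -0.60 in HL60, between -0.45 and -0.40 in U937, and between -1.16 and -0.78 for the untreated class difference. Its class difference in response ranged from 0.37 to 0.62 and lost the call only without the line KG1a (0.37, adjusted p = 0.0510). With each line taken as 1 value, the mean changes of SLC38A12 (-0.30) and SLC7A11-AS1 (0.32) did not pass. The changes of SLC7A11-AS1 in HL60 and KG1a, and their mean, are description only, since these groups let it through the filter. So are the comparisons of its change between lines or classes. In HL60 the change was 0.49 to 0.64. In KG1a its change of 0.43 lost the call with a replicate block within the line, with the 6 arrays of the line alone (adjusted p = 0.0587) and at a threshold of 0.01, and leaving out single arrays gave 0.39 to 0.48. The replicate block changed no other call of the 2 genes, and a block for the letter alone changed none. The small class differences of SLC7A11-AS1 changed sign: the response difference was 0.20 without the line HL60, 0.092 without the line MOLM14, 0.015 with the 3 distant arrays left out and -0.078 to 0.013 without single arrays, and the untreated difference was 0.023 without the line MOLM14 and -0.072 to 0.011 without single arrays. At a filter of 5 SLC7A11-AS1 is not tested. The causes were not tested.

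The numbers of genes behind the shares also moved. The fewest genes were called at a threshold of 0.01 in HL60 (1545 against 2666), KG1a (77 against 265) and MOLM14 (247 against 538) and for the difference between lines (491 against 1064). In U937 the 6 arrays alone gave 847 against 1830, and 1136 passed without metformin A. In MOLM14 leaving out control A, control B or any 1 metformin array gave 307 to 341, and leaving out the 3 distant arrays 806. For KG1a the number was 133 with a replicate block within the line, 83 with its 6 arrays alone, 97 without 1 of its arrays and 470 with the 3 distant arrays left out. The mean of 4 lines gave 466 genes against 3441 with each line as 1 value, and the class difference 274 against 712 without HL60 and also without KG1a. With each line as 1 value, 4 of 10 stress response genes, 1 of 8 mTORC1 genes and 0 of 5 cystine and glutathione genes passed as higher, and 0 mTORC1 and 0 cystine genes as lower. After quantile normalization 6 mTORC1 genes against 3 and 1 stress response gene against 0 passed as lower, and 1 stress response gene also did without HL60, HL60 control B, KG1a metformin C or MOLM14 metformin A. Levels near the median of all rows limit what can be read of SLC7A11-AS1.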
